A study of Drosophila melanogaster with 4 samples.

Results

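The broad domains of H3K79me3 are the stretches of 10 kb or more that the authors called enriched in their series-wide list, on every sequence except the X chromosome. They numbered 701 of the 6152 enriched regions in that list and of the 5012 that lay outside the X. They were chosen by their measured width alone. The mark is histone H3 trimethylated at lysine 79, mapped by ChIP-seq (sequencing of DNA pulled down with an antibody to the mark) in wild-type whole embryos of Drosophila melanogaster, strain Oregon-R, labelled as 14 to 16 hr old. The labels give 2 ChIP replicates and 2 inputs, all of this strain, stage and genotype, so no condition was contrasted. The deposited lists cover each ChIP replicate and the series as a whole. The lists hold positions on FlyBase r5 (1-based here) and a score of the authors' own, with no read counts, so depth is unknown. Whole embryos mix many cell types, and a mark present in few cells cannot be told apart from a weak mark in many. Nothing in the labels ties the replicates to separate collections of embryos, so their spread may be technical only.

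Methyl groups on lysine 79 sit on the face of the nucleosome core and not on a histone tail. They are placed by the Dot1 family of methyltransferases, of which the fly member is Grappa. Across yeasts, flies and mammals the mark is known from the bodies of transcribed genes, often strongest towards the start of the transcribed region. Dot1 adds its methyl groups one after another, so the trimethylated form accumulates where the enzyme acts repeatedly or for long. In late embryos, when nervous system, muscle and epidermis differentiate, many tissue-specific genes are switched on. Gene positions on FlyBase r5 were not used here, so domains are named by position, and no gene is assigned to them.

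The width chose these domains, so widths and the other values of the series-wide list are given as a description. The domains made up 14.0% of the regions outside the X and held 13.8 of their 28.8 Mb, or 47.9% of the covered bases. Widths ran from 10011 to 116639 bp with a median of 15957 bp, and 90% of the domains were no wider than 32833 bp. Of the 701, 223 were 20 kb or wider and held 52.1% of the domain bases. A further step up, 42 were 40 kb or wider, 18 were 50 kb or wider and 2 exceeded 100 kb. The distribution thus fell off steadily from the threshold, with 159 domains between 10 and 12 kb. The 3 narrowest members had 10011 bp (3R from 13500054 to 13510064, score 2.08), 10017 bp (3R, starting at 9507392, score 1.48) and 10029 bp (3L, starting at 15491610, score 0.924). The 3 widest regions just below the threshold had 9981, 9979 and 9973 bp, with scores of 1.57, 1.73 and 3.00. No break in width or score separated members from non-members there.

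Scores within the domains differed widely. The lowest was 0.492, the median 1.59 and the highest 2.94, on the authors' unstated scale. Score was only loosely tied to width inside this class. Across the 701 domains, width and score had a Spearman's rho of 0.227, against 0.812 for all 5012 regions outside the X, and 0.197 and 0.221 when the score was read from replicate 1 or replicate 2. Inside the narrower classes rho was 0.191 at 4 to 10 kb, 0.448 at 2 to 4 kb and -0.158 under 2 kb. A loose tie was thus not particular to the domains. These are correlations across regions that share libraries and are not independent replicates, and a narrower range of widths can lower such a value. Domains of 10 to 12 kb had a median score of 1.46, those of 20 to 30 kb 1.76, and those of 30 kb or more 1.73. The highest-scoring domain (2.94) was 17617 bp wide and the next (2.94) only 10351 bp, so a strong score did not need great width.

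**Figure D1:**
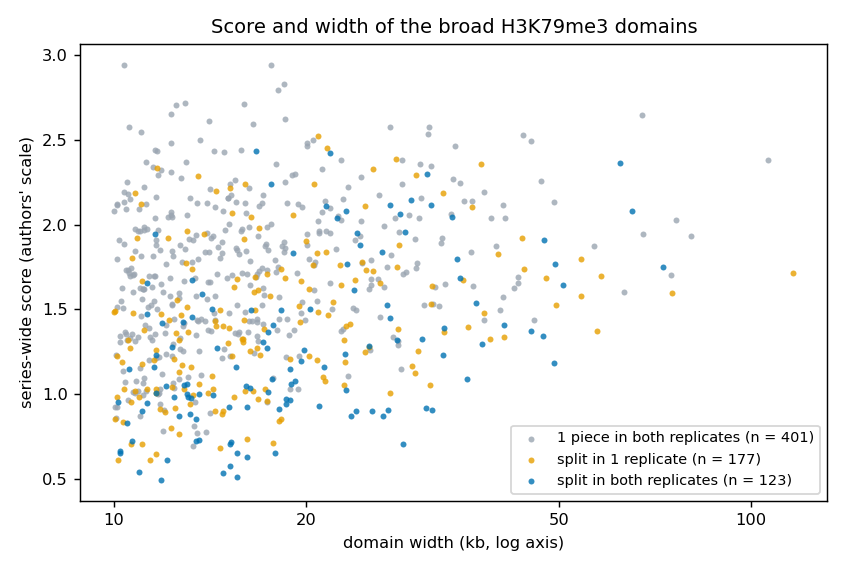
Width (horizontal, kb, log axis) and series-wide score (vertical, authors' scale) of each of the 701 broad domains, coloured by whether the replicate lists split it. The 123 domains split in both replicates lie mostly low in the plot, with a median score of 1.18, and the 401 domains in 1 piece in both lie higher, with a median of 1.75; scores of the groups overlap widely.

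The replicates scored the same domains alike. A replicate score, here the overlap-weighted mean of the replicate regions lying on a domain, correlated between replicates with Pearson's r of 0.964 and Spearman's rho of 0.964 across the 701 domains. Of the domains, 349 (49.8%) scored higher in replicate 2, and the median difference, replicate 2 minus replicate 1, was -0.000642. The median absolute difference was 0.0794, and 90% of the differences lay between -0.169 and 0.239. By arm the median difference was 0.0196 on 2L, -0.0196 on 2R, 0.00939 on 3L and -0.0141 on 3R, each smaller than the typical difference at a single domain. No test across samples was made, because with 2 replicates an exact two-sided permutation of signs cannot give a p below 0.5.

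Along the chromosomes the domains were spread over all 4 large autosomal arms. The arm 2R carried 184 domains, or 8.70 per Mb, which covered 16.4% of its length. On 3R there were 200 (7.17 per Mb, 14.5% of the arm), on 3L 167 (6.80 per Mb, 13.9%) and on 2L 149 (6.48 per Mb, 12.5%). The same rule applied to the replicate lists put 2R highest as well, at 7.47 and 7.24 per Mb in replicates 1 and 2. The lowest arm there was 3L, at 5.34 and 5.54 per Mb, with 2L at 5.56 and 6.17, so the order of 2L and 3L depended on the list. Median widths were 16591 bp on 2L, 15184 bp on 2R, 15987 bp on 3L and 16281 bp on 3R. The arm with the most domains per Mb thus had the narrowest ones at the median. Chromosome 4 had 1 domain among its 46 regions, and the 30 regions on the heterochromatin and unplaced sequences included none.

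Each arm was then divided into 10 equal parts from telomere to centromere. Over the 4 arms together the part next to the telomere held 86 domains (8.90 per Mb) and the next 87 (9.01 per Mb). The parts between held 68 to 82, and the part next to the centromere held 29 (3.00 per Mb). Narrower regions thinned out there too, but less. Domains made up 9.39% of the 309 regions in that part and 12.2 to 17.2% in the other 9 parts. The arms differed at this end. On 3L, 2R and 2L the part next to the centromere held 2, 3 and 7 domains, while on 3R it held 17, or 6.09 per Mb. Within 2L the density fell from 10.9 per Mb at the telomere to 3.48 in the seventh part and returned to 9.13 in the ninth.

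**Figure D2:**
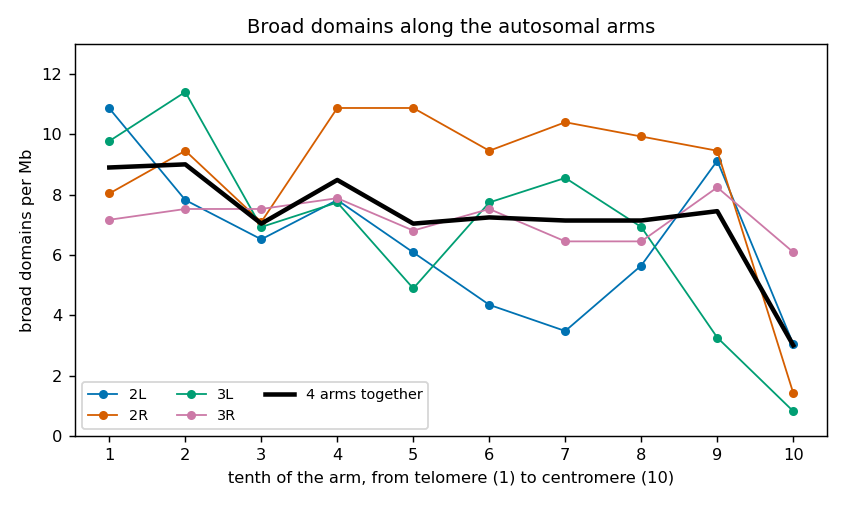
Number of broad domains per Mb (vertical) in 10 equal parts of each autosomal arm, from telomere (1) to centromere (10); thin lines are single arms and the thick black line all 4 together. The black line stays between 7.04 and 9.01 over the first 9 parts and ends at 3.00, while 3R alone stays at 6.09 in the last part.

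In full bins of 1 Mb, 95 in all, the median was 8 domains and the highest 13. The fullest bins lay on 2L from 0 to 1 Mb and on 3L from 2 to 3 Mb, with 13 each, followed by 2R from 4 to 5 Mb with 12. At the other end, 4 bins held none. The variance of the count was 1.27 times its mean, and 1.35 and 1.20 times in the 2 replicate lists. Without the bins in the part of each arm next to the centromere, the ratio was 0.927 over 86 bins, so the counts varied less from bin to bin once the sparse ends were set aside. In bins of 2 Mb over the whole arms the ratio was 2.05.

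The longest stretches without a domain were the centromere ends of 3L (2142 kb) and 2R (1880 kb), and the centromere end of 2L had 1173 kb. Within the arms the longest were 2L from 14690005 to 16269909 (1580 kb), 3L from 19924965 to 20923717 (999 kb) and 3R from 3001629 to 3930473 (929 kb). They differed in how much narrower signal they held. The 3L stretch carried 55 narrower regions over 19.3% of its length, whereas the 2L stretch carried 33 over 6.52% and the 3R stretch 19 over 6.85%.

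At shorter range the spacing of domains varied widely. The distance from a domain to the nearest other domain, edge to edge, had a median of 27342 bp, and the middle 50% of domains lay between 7679 and 69525 bp. Another domain was found within 20 kb for 288 of the 701 (41.1%), within 10 kb for 201 and within 5 kb for 137. The share of all regions with a domain that near was not computed, so these counts do not show that domains gather. Joined at 20 kb, these 288 formed 121 chains, of which 85 had 2 members, 27 had 3, 8 had 4 and 1 had 5. The other 413 domains stood alone at that distance.

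The only chain of 5 lay on 3L from 3068804 to 3171470, where domains filled 66.9% of 102667 bp. Its members scored 1.94, 1.01, 1.91, 1.46 and 1.39 from left to right, the second being the lowest. The longest of the 4-member chains lay on 3R from 10470296 to 10602940 over 132645 bp and was filled to 85.4%, with scores of 2.32, 1.74, 1.99 and 1.37. Its 2 inner members were only 337 bp apart. A chain of 4 on 3L from 2380736 to 2485598 began with a domain of 27271 bp scoring 1.82 and went on with 3 domains scoring 0.854, 0.926 and 1.06. Replicate 2 ranked the members of these 3 chains in the same order as the series-wide list. Replicate 1 did so in the 3R chain, and in the 3L chains it exchanged 1 pair each, with 1.96 above 1.89 for the 2 highest of the 5 and 0.914 below 0.974 for the 2 lowest of the 4.

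Domains that neighbour each other did not resemble each other in score. Across the 167 consecutive pairs within 20 kb, Spearman's rho between their scores was 0.0898 in the series-wide list, 0.113 in replicate 1 and 0.0544 in replicate 2. Across the 529 pairs farther apart it was -0.0638. The median absolute difference in score was 0.468 for near pairs and 0.503 for distant ones. Widths gave a rho of 0.0383 and 0.0138. These values describe pairs along shared libraries and carry no p. Nor was being broad much of a guide to the next region: the region following a domain was itself a domain in 111 of 701 cases (15.8%), where 14.0% of all regions outside the X were followed by one. For regions of 4 to 10 kb, 2 to 4 kb and under 2 kb these shares were 15.4%, 12.8% and 12.9%. At most 3 domains followed each other with no narrower region between them, which happened in 19 places.

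The nearest other region of any width was close for most domains. The median distance was 1075 bp, with the middle 50% between 329 and 3145 bp. It was 980 bp for the 1360 regions of 4 to 10 kb, 1146 bp for the 1652 of 2 to 4 kb and 1013 bp for the 1299 under 2 kb, so the width classes differed little. A region lay within 1 kb of 344 domains (49.1%), where 48.8% of all regions outside the X had one that near. In 59 domains this held on both sides, and 2 domains touched a neighbour. The nearest region had a median width of 3687 bp and was itself a domain for 113 of the 701. When only the upper 50% of regions by score were kept, the median distance rose to 4210 bp.

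**Figure D3:**
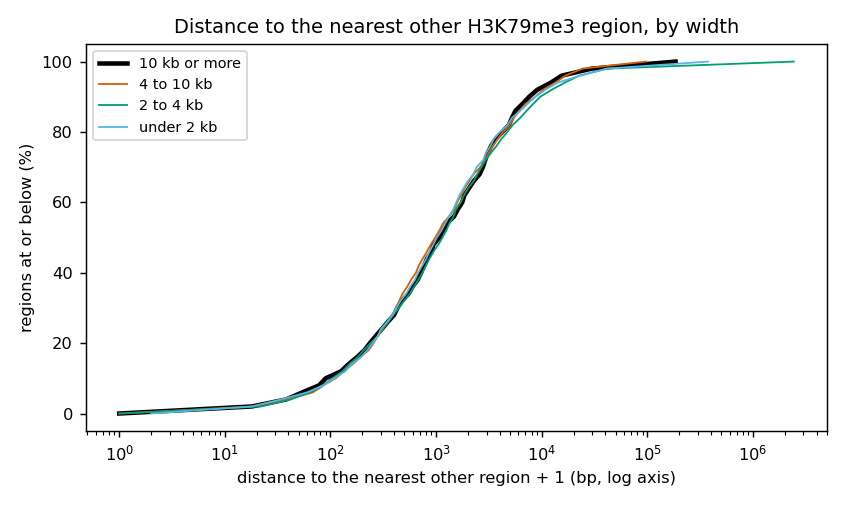
Share of regions (vertical, %) whose nearest other region lies at or below a distance (horizontal, bp plus 1, log axis), for the broad domains (thick black line) and 3 narrower width classes outside the X. The 4 curves nearly coincide, with medians between 980 and 1146 bp.

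A few domains stood far from everything. The most isolated lay on 3R from 24145858 to 24170764 (24907 bp, score 1.73), with 184837 bp to the nearest region and 260311 bp to the nearest domain. It was followed by 3L from 13221032 to 13271710 (50679 bp, score 1.64, nearest region at 103799 bp) and 2R from 19053398 to 19094450 (41053 bp, score 2.04, 90785 bp). The next were 2L from 21827810 to 21839020 (11211 bp, score 2.12, 57591 bp) and 3L from 10974948 to 11002866 (27919 bp, score 1.38, 51257 bp). In all, 52 domains (7.42%) had no region within 10 kb, where 8.76% of all regions outside the X had none. The isolated domain on 2R was unbroken in both replicates, with scores of 2.05 and 2.04. The isolated domain of 3L at 13221032 was broken at nearly the same place in both, with a first piece ending at 13266181 in replicate 1 and at 13266236 in replicate 2.

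Each domain was next looked up in the replicate lists. Whether the authors built the series-wide list from the same reads is not stated, so the lists may not be independent. All 701 domains were overlapped in both replicates, where 75.1% of all regions outside the X were. Overlap by 1 base was enough, which favours wide regions, so this contrast cannot be read as particular to the domains. The median share of a domain covered was 98.9% in replicate 1 and 98.1% in replicate 2, and the lowest was 69.5% and 49.2%. Fewer than 80% of the bases were covered in 10 domains in replicate 1 and in 27 in replicate 2.

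Many domains were not single regions in the replicates. A domain was called continuous in a replicate when exactly 1 replicate region overlapped it and covered at least 90% of it, and split when 2 or more overlapped it. Continuous domains numbered 441 (62.9%) in replicate 1 and 478 (68.2%) in replicate 2, where 61.0% and 47.4% of all regions outside the X met the rule. Both replicates together left 364 continuous (51.9%), against 37.9% of all regions. That share was 54.2% for regions of 4 to 10 kb, 44.8% for 2 to 4 kb and 4.46% under 2 kb. The domains were thus no more often continuous than the class next in width. Replicate 1 split 241 domains (34.4%) and replicate 2 split 182 (26.0%), against 8.92% and 7.14% of all regions. Split in both were 123 domains (17.5%), against 3.75%. A wider region has more room to be split, so these shares cannot be read as particular to the domains. Most splits gave 2 pieces, 177 in replicate 1 and 136 in replicate 2, and 64 and 46 domains had 3 or more. Most breaks were short: when replicate regions within 1 kb of each other were joined, 42 and 45 domains remained split and 569 were continuous in both.

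Split domains scored lower than those in 1 piece in both replicates. Pieces and replicate scores come from the same lists, so score and splitting are not independent measures. The calling threshold is unknown, and its part in the splits was not tested. The median series-wide score was 1.75 for the 401 domains in 1 piece in both replicates, 1.42 for the 118 split in replicate 1 only, 1.39 for the 59 split in replicate 2 only and 1.18 for the 123 split in both. Read from the replicates, the last group scored 1.20 and 1.22 and the first 1.76 and 1.78. The ranges overlapped, from 0.692 to 2.94 for the first group and from 0.492 to 2.43 for the last. Among the lowest 25% of domains by score, replicate 1 split 60.2% and replicate 2 split 48.9%. Among the highest 25% the shares were 17.7% and 13.1%, and they fell at each step between. After joining regions within 1 kb, the lowest 25% held 24 of the 42 splits left in replicate 1 and 31 of the 45 left in replicate 2.

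Width went the other way, and less steeply. Replicate 1 split 25.8% of the domains of 10 to 12 kb and 42.4% of those of 30 kb or more, and replicate 2 split 17.0% and 33.7%. Counted per length, breaks were not more frequent in the widest domains, and no steady trend led there. The width steps were 10 to 12, 12 to 15, 15 to 20, 20 to 30 and 30 kb or more. In that order replicate 1 had 27.5, 24.2, 29.4, 25.5 and 17.2 breaks per Mb of domain. Replicate 2 had 18.3, 23.2, 19.6, 19.2 and 12.2. By score the same count fell from 55.6 per Mb in the lowest 25% to 9.16 in the highest in replicate 1, and from 46.4 to 7.07 in replicate 2. At each width the lower 50% by score were split more often than the upper 50%. At 12 to 15 kb, for example, replicate 1 split 39 of 93 against 5 of 59, and replicate 2 split 34 of 93 against 6 of 59.

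**Figure D4:**
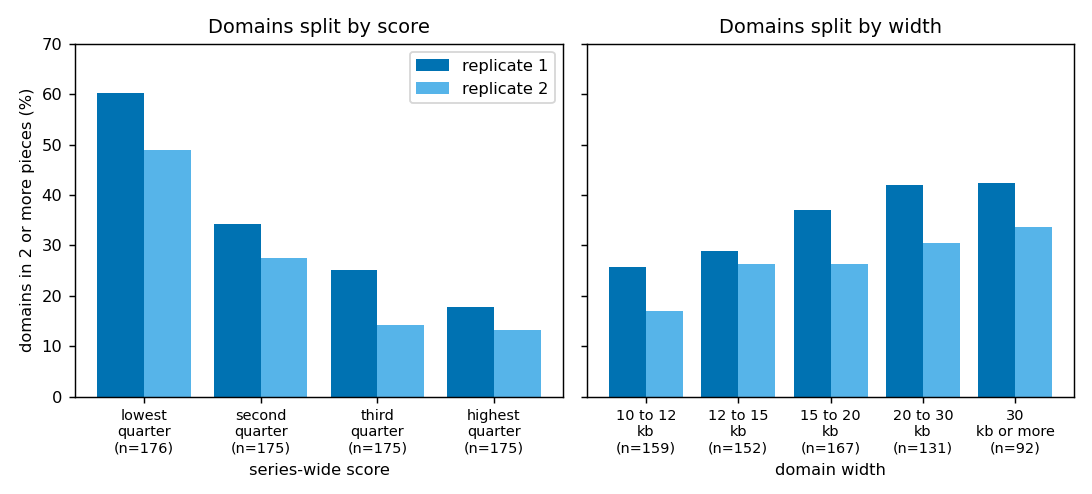
Share of broad domains (vertical, %) that the list of replicate 1 (dark) or replicate 2 (light) breaks into 2 or more pieces, by 25% steps of the series-wide score (left) and by width (right). The share falls from 60.2% to 17.7% in replicate 1 and from 48.9% to 13.1% in replicate 2 as score rises, and rises from 25.8% to 42.4% and from 17.0% to 33.7% with width.

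The breaks were narrow. The 331 breaks of replicate 1 inside the domains had a median of 286 bp, the longest being 4566 bp. In replicate 2 the 245 breaks had a median of 308 bp, and the longest was 4619 bp. In both, the breaks added up to 1.08% of the domain bases. Breaks of 1 kb or less made up 86.7% and 78.8%. They were found all along the domains. Both outer 20% parts together held the centres of 32.9% and 39.6%, and the single middle 20% held 20.2% and 15.1%. By 20% steps from left to right the counts were 57, 77, 67, 78 and 52 in replicate 1. In replicate 2 they were 46, 49, 37, 62 and 51.

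Some breaks overlapped between the replicates. Of the breaks in replicate 1, 89 (26.9%) shared bases with a break in replicate 2, and of those in replicate 2, 90 (36.7%) shared bases with one in replicate 1. Among the 123 domains split in both, 82 (66.7%) had such a shared break. In the 90 shared pairs the centres were 124.5 bp apart at the median, and in 22 pairs they were within 50 bp. An example lies in the domain on 2R from 11758656 to 11823692, where replicate 1 left out bases 11810383 to 11810420 and replicate 2 bases 11810375 to 11810421. The break separated a piece scoring 2.18 in replicate 1 and 2.30 in replicate 2 from one scoring 1.66 and 1.60. A further pair lay in the domain on 3L from 6485436 to 6512568, with breaks of 631 and 360 bp whose centres were 2.5 bp apart. Shared breaks were wider in replicate 2 (median 551.5 bp) than in replicate 1 (288.5 bp), and the medians of unshared ones were 283.5 and 258 bp in replicates 1 and 2. A break counted as shared on a single base, which favours wide breaks, and the part of this rule in the widths was not tested. On 3L from 2466604 to 2485598, for example, shared breaks of 45 and 4619 bp had centres 2030 bp apart.

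The pieces of a split domain were unequal. The largest piece took up 65.1% of the domain at the median in replicate 1 and 70.3% in replicate 2. It scored 1.40 and 1.38 at the median, against 0.779 and 0.665 for the other pieces of the same domains, and scored above their median in 208 of 241 domains (86.3%) and 161 of 182 (88.5%). Wider regions scored higher across the whole lists (Spearman's rho 0.808 and 0.806 across regions outside the X), and the part of width in this difference was not tested. In domains of 3 or more pieces the highest score belonged to an end piece in 49 of 64 cases (76.6%) in replicate 1 and 39 of 46 (84.8%) in replicate 2. Most such domains have 3 pieces, so end pieces were already 60.6% and 61.0% of a domain's pieces on average.

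The higher-scoring side was the same in both replicates for most domains split in both. The side was read by weighting the position of each piece by its score and comparing it with the middle of the covered bases. It agreed in 110 of the 123 domains (89.4%). Among the 82 with a shared break it agreed in 78, and among the 41 without one in 32. The left side scored higher in 116 of 241 domains in replicate 1 and 98 of 182 in replicate 2, close to equal numbers on either side. This measure was chosen after the breaks had been seen and is given as a description.

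Single domains show how the score changed along their length. The domain on 2R from 10001262 to 10029116 had 5 pieces in replicate 1, scoring 0.441, 0.735, 0.671, 1.05 and 1.79 from left to right. Replicate 2 split it once, into a left piece of 0.680 and a right piece of 1.66, so both rose towards the right. On 2R from 17325818 to 17373004 replicate 1 had 6 pieces, scoring 0.518, 0.587, 0.962, 0.542, 1.45 and 1.99 from left to right. Replicate 2 had 3, of 0.485, 0.627 and 1.54, again highest at the right. The domain on 3R from 898536 to 933440 went the other way, with a left piece scoring 2.25 in replicate 1 and 2.10 in replicate 2 and 3 pieces to its right between 0.512 and 0.711 in both. The domain on 2L from 10544400 to 10593514 likewise had a wide left piece scoring 1.38 and 1.39, followed by 2 pieces in replicate 1 and 4 in replicate 2 between 0.433 and 0.739. Other domains among the most split were not graded in this way. On 3R from 10557816 to 10602940 replicate 1 scored 1.88, 0.952, 0.584, 1.42, 0.802 and 0.701, and replicate 2 scored 1.91 and 1.14. On 2R from 6726950 to 6767860 the end pieces were the highest, at 1.31 and 1.57 in replicate 1 and 1.27 and 1.69 in replicate 2.

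**Figure D5:**
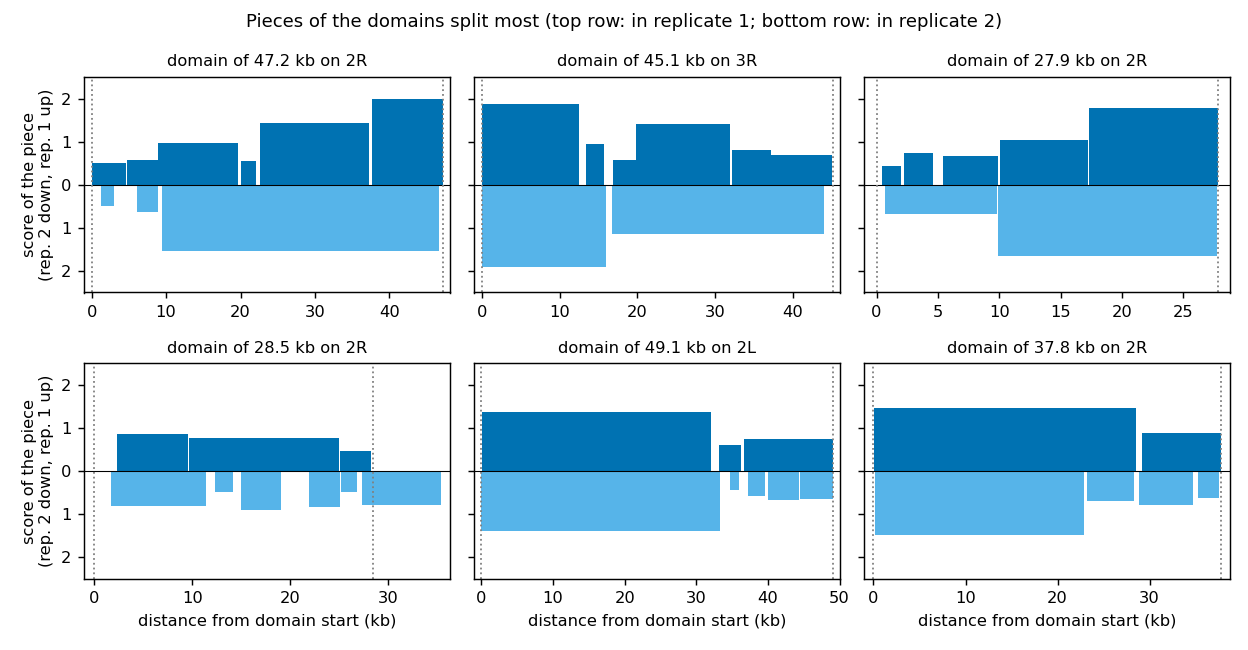
Pieces of the 3 domains split most in replicate 1 (top row) and in replicate 2 (bottom row), placed by distance from the domain start (horizontal, kb); the height of a bar is the score of the piece, upwards for replicate 1 and downwards for replicate 2, and dotted lines mark the domain ends. In 5 of the 6 the highest-scoring piece stands at the same end in both replicates, and the domain of 28.5 kb is low throughout, between 0.475 and 0.893.

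The outer ends of the domains were placed closely in all 3 lists. The outermost replicate edge lay 48 bp from the series-wide edge at the median in replicate 1 and 92.5 bp in replicate 2, over 1402 edges each. Within 200 bp were 83.2% and 70.8% of the edges, and farther than 2 kb were 12 and 44. The replicates' own edges were 112.5 bp apart at the median. Replicate edges lay inside the series-wide edge in 78.8% and 83.7% of cases, so the series-wide domains were slightly longer at their ends than the replicate regions.

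Of the 10 widest, 6 were in 1 piece in both replicates. The widest of all, 116639 bp on 3R from 5697924 to 5814562, was among the other 4: replicate 1 broke it into pieces of 18841, 59293 and 37215 bp scoring 2.60, 1.63 and 1.30, while replicate 2 held it as 1 region scoring 1.65. Next in width after the 5 largest came 74987 bp on 3R from 14873546 to 14948532 (1.70 ± 0.0550, mean replicate score with SD, n = 2) and 72739 bp on 2L from 18314438 to 18387176 (1.77 ± 0.0957). Then followed 67811 bp on 3L from 507236 to 575046 (1.95 ± 0.00546), 67459 bp on 3L from 17945734 to 18013192 (2.65 ± 0.00327) and 65037 bp on 2R from 11758656 to 11823692 (2.04 ± 0.0540). The 67459 bp domain on 3L was both very wide and ninth in score among the 701. The domain on 2L was broken near its left end in both replicates, where pieces of 1769 and 1479 bp scored only 0.367 and 0.225.

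The 5 highest-scoring domains were of moderate width and in 1 piece in both replicates. On 3R from 27423422 to 27441038 the replicates scored 3.01 and 2.88, and on 2R from 4501386 to 4511736 they scored 2.97 and 2.92. The next were 3R from 12067770 to 12086288 (2.88 and 2.78), 3L from 10850260 to 10868328 (2.78 and 2.83) and 2R from 16881626 to 16894542 (2.79 and 2.65). These 5 were 10351 to 18519 bp wide. In both replicates each was covered by 1 region, and the lowest coverage was 98.6%.

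The lowest-scoring domains were all split in both replicates. The lowest lay on 3R from 18046094 to 18057964, with a replicate score of 0.575 ± 0.0374 (SD, n = 2), 3 pieces in replicate 1 and 2 in replicate 2, and only 61.7% of it covered in replicate 2. The others lay on 2R from 15459566 to 15475178 (0.570 ± 0.0416), 3R from 12510100 to 12524914 (0.593 ± 0.0146), 3L from 16904050 to 16914986 (0.586 ± 0.00218) and 2R from 12285946 to 12301138 (0.616 ± 0.110). None of their pieces in either replicate was as wide as 10 kb. The widest was 8442 bp.

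That held for other domains too. A replicate region of 10 kb or more touched 577 domains in replicate 1, 596 in replicate 2 and 530 (75.6%) in both. In 58 domains neither replicate had one. The median of these 58 was 11881 bp in width and 0.990 in score, and the widest was 23549 bp, so they were 10 kb or wider only in the series-wide list.

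In the other direction, nearly all broad replicate regions lay in the domains. Replicate 1 had 590 regions of 10 kb or more outside the X, of which 589 lay over at least 50% of their length inside a domain. The exception, 10057 bp on 2R from 9327319 to 9337375, was the series-wide region of 9981 bp just below the threshold. Replicate 2 had 605, of which 598 lay inside. The other 7 shared no base with a domain and joined 2 or 3 narrower series-wide regions, the widest being 21771 bp on 2L from 5101110 to 5122880. Replicate 2 also bridged 4 pairs of domains within 20 kb of each other, and replicate 1 none. The widest bridge was a region of 67691 bp on 3R from 9794083 to 9861773, which held 2 domains.

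The only domain outside the large arms lay on chromosome 4 from 521884 to 532852 (10969 bp, score 1.15). Replicate 1 had 1 region of 7846 bp there, covering 71.5% of it. Replicate 2 had 1 region of 17485 bp that covered all but its first 2 bases and ran on past its right end. Scores were 1.20 and 1.26, so the replicates differed in its extent and less in its score. Its nearest other region was 47 bp away.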

How the data were processed

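The authors' deposited lists, 1 per ChIP replicate and 1 for the series, give the first and last base of each region, its type and a score per region whose scale is not stated. Per the file headers, positions follow FlyBase r5. Of the tools, the submitters' processing notes name Bowtie 0.12.7. The region caller, its threshold, the use of the inputs and any pooling of replicates are not stated in what was used here. Lists were read whole in Python 3.11.15 with numpy 2.4.6 and pandas 2.3.3, and piece counts, gaps and distances were tested on simulated data. Enriched regions outside the X were kept. Distances are bases between edges, pieces overlap a domain by at least 1 base, and chains join domains within 20 kb. The domains and measures were chosen with earlier results of these data known. The text names domains by rank: the widest, the highest and lowest in score, the most split, the most isolated, those nearest the threshold, and those off the large arms. Bridging and broad replicate regions, stretches and shared breaks named as examples were chosen after their values were seen. No sequence is shown, since a genome of this build was not used here. Alternatives varied the width, overlap, distance, bin size, score threshold, list and merging within 1 kb.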

Additional observations from a re-analysis of the deposited data

Results flagged for a closer look

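Outside the X, 5 regions of the series-wide list are called depleted, a signal in data that the comparisons of enriched regions do not use. On 2R the nearest broad domain was 7283 bp from the depleted region that starts at 14034350, and on 3R it was 31479 bp from the one at 12977106. On 3L the distances were 44679 bp (start 16573126) and 166719 bp (start 11713612). The remaining one is on 3LHet, which has no broad domain. Depleted regions and domains come from the same list, so these distances have no bearing on the breaks in the replicate lists.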

How the results depend on the processing

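No paired analysis was possible because the results come from no test and the inputs have no list of their own. Over 10 results and 42 alternatives, 25 values stayed within 1 SD of the replicate lists or, for counts, within 1.5 times. Some of the 25 could not have gone otherwise, such as the edge distances with a replicate left out. The count is therefore no measure of robustness. With regions within 1 kb merged, domains held 64.5% of the covered bases, the median distance to the nearest region was 2851 bp, 569 domains were continuous in both replicates, and 42 and 45 were split in replicates 1 and 2. With the upper 50% of regions by score the distance was 4210 bp. From the replicate 1 list the share of bases was 42.3%, and from the replicate 2 list the distance was 1563 bp. The share of domains with another within 20 kb was 38.6% and 36.4% from the replicate lists, 53.1% and 31.5% at widths of 8 and 12 kb, and 28.7% and 65.6% at distances of 10 and 50 kb. Spearman's rho of score and width was 0.197 with replicate 1 scores. The variance to mean ratio was 2.05 in bins of 2 Mb and, chosen after seeing the data, 0.927 outside the part next to the centromere, below 1 where the reported value of 1.27 is above it. Leaving out a replicate gave 441 to 478 continuous domains and edge distances of 48 to 92.5 bp around a mean of 70.2 bp. The lists hold no read counts, so what depth limits could not be measured.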
